A study of Homo sapiens with 8 samples.

Results

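Expression was compared between all U373 arrays treated with RU-486 and all U373 arrays without it, which takes in all 8 arrays of the series, 4 on each side. The members were chosen by title: an array counts as treated where its title names RU-486, alone or with progesterone. U373 is an established human astrocytoma cell line, and its cells were held in medium with hormone-free serum before treatment. With the drug stood 2 arrays of 1 µM RU-486 alone and 2 arrays of 10 nM progesterone plus 1 µM RU-486, called the combination. Without it stood 2 arrays of 10 nM progesterone alone and 2 arrays of vehicle. Progesterone was thus present on 2 of the 4 arrays of each side, and every array was taken after 12 h. The readout was total RNA on an Affymetrix array with probes along whole transcripts, and 1 probe set was kept for each of 18417 genes, on the log2 scale. The sample descriptions write RU-484 where the titles and the treatment protocol write RU-486, and the 2 names were read as 1 drug. The titles call the replicates biological, but no label names separate cultures, and the p-values measure only the spread between these samples, which may be technical.

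RU-486, or mifepristone, is a synthetic steroid that occupies the progesterone receptor and the glucocorticoid receptor and blocks activation of their target genes, although it can act as a partial agonist in some cells. Both receptors are transcription factors that bind DNA when they carry their hormone. The gene groups below also include the amino acid response, in which a shortage of amino acids or another stress raises translation of the transcription factor ATF4, which then drives genes of amino acid synthesis, import and tRNA charging. A further group is the carnitine shuttle, which carries long-chain fatty acids into mitochondria for oxidation.

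Array medians ran from 6.93 to 7.02 on the log2 scale. Progesterone replicate 1 had the highest median and the narrowest interquartile range, 3.75, against 3.86 to 3.94 in the other arrays. The replicates were not equally close. The SD over genes of the difference between replicates was 0.16 for RU-486, 0.17 for the combination, 0.35 for progesterone and 0.18 for vehicle, so the 2 progesterone arrays stood apart from each other. A probe set has no absolute zero, and dim ones were read against 341 olfactory receptor genes, whose 95th percentile lay at 6.22. Of all 18417 genes 72.4% lay above that level, so counts of markers above it do not single out a cell type. Of the 20 astrocyte and glioma markers 15 lay above it, among them the intermediate filament gene VIM, the glutamate transporter gene SLC1A3 and GFAP. Of the markers of other cell types, 7 of 11 for neurons, 5 of 9 for oligodendrocytes, 4 of 12 for microglia and leukocytes, 2 of 10 for endothelium and 6 of 9 for epithelium lay above it. Averaged over each of these 5 lists, the arrays with RU-486 lay within the range of the arrays without it for all but endothelium, whose highest array stood at 6.15 with the drug, against 6.14 without it. Whether other cell types had a part in the results was not tested.

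The genes ASNS, CPT1A, NUPR1, CHAC1, PCK2 and SLC25A20 rose in the presence of RU-486. These 6 were all that limma called among 18417 genes (0.0326%, Benjamini-Hochberg adjusted p under 0.05), and 0 genes fell. At an unadjusted p under 0.05 lay 1202 genes with a higher mean (6.53%) and 827 with a lower mean (4.49%). The median difference of all genes was 0.03 log2 units. For all 6 called genes the lowest array with the drug lay above the highest array without it, and the plot of their values by array shows the gap.

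**Figure D1:**
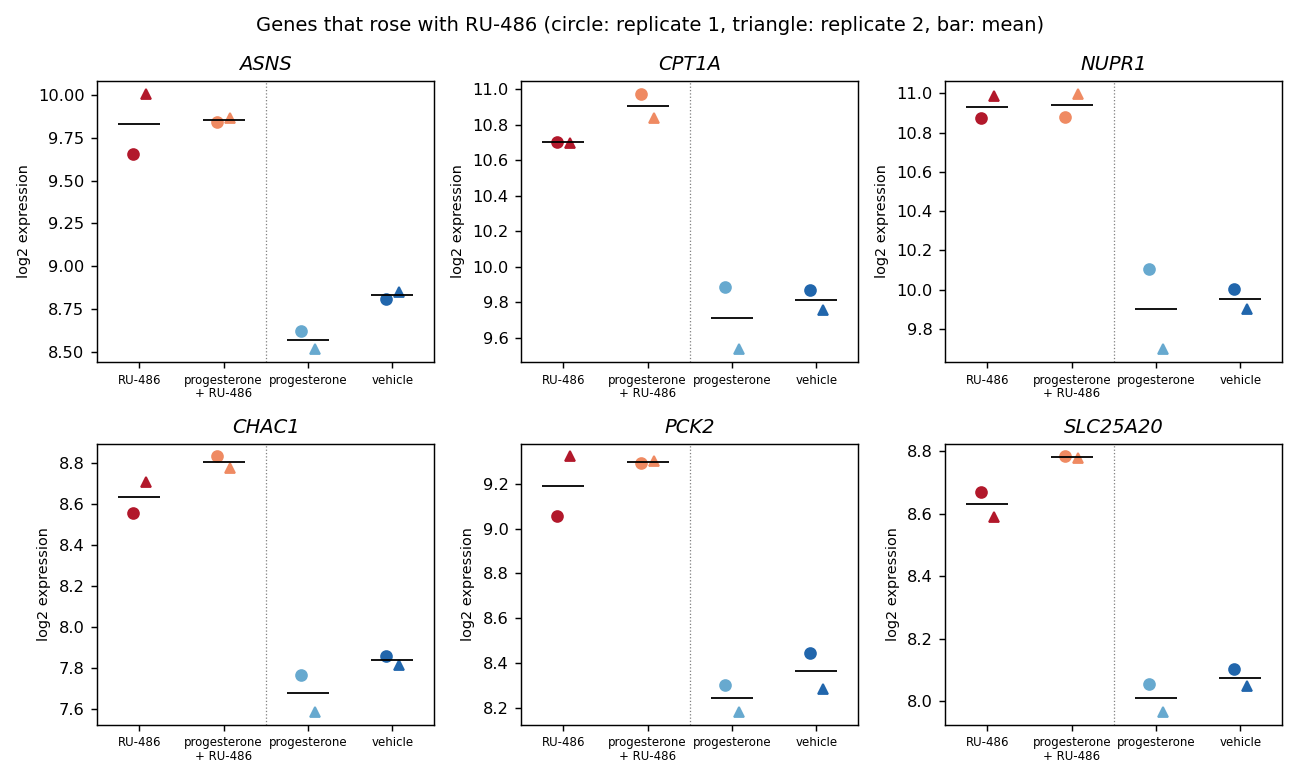
Log2 expression (vertical axes) of the 6 genes that rose with RU-486, by treatment (horizontal axes); each circle is replicate 1, each triangle replicate 2 and each bar the mean of 2 arrays. In every panel the 4 arrays left of the dotted line, with RU-486, lie above the 4 right of it, without the drug, and the axes do not start at 0.

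ASNS makes asparagine from aspartate and glutamine and is a standard target of ATF4. It stood at 9.65 and 10.01 in the RU-486 arrays and 9.84 and 9.87 in the combination arrays, against 8.62 and 8.52 in the progesterone arrays and 8.81 and 8.85 in the vehicle arrays. The 2 sides were 0.80 log2 units apart at their nearest arrays. The difference was 1.14 ± 0.09 log2 units (SE, n = 4 arrays a side), a 2.21-fold rise with a 95% interval of 0.94 to 1.34 log2 units (limma adjusted p = 0.0236).

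CHAC1 degrades glutathione and is another ATF4 target. Its log2 levels were 8.56 and 8.71 with RU-486 and 8.83 and 8.78 with the combination, compared with 7.76 and 7.58 with progesterone and 7.86 and 7.81 with vehicle. It had the smallest p of all genes and rose 1.95-fold, by 0.96 ± 0.07 log2 units (limma adjusted p = 0.0236). All 4 treated arrays lay at least 0.70 log2 units above the 4 others.

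NUPR1 encodes a small chromatin-associated protein induced by cell stress. It was measured at 10.88 and 10.99 in RU-486 arrays and 10.88 and 10.997 in combination arrays, whereas progesterone arrays gave 10.10 and 9.70 and vehicle arrays 10.005 and 9.90. The treated arrays lay close together (SD 0.07, n = 4), and the 4 others were wider (SD 0.17, n = 4) because the progesterone arrays lay at both ends of their range. The rise was 1.01 ± 0.10 log2 units, or 2.01-fold (limma adjusted p = 0.0479).

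PCK2, the mitochondrial enzyme that makes phosphoenolpyruvate from oxaloacetate, read 9.06 and 9.32 in the RU-486 arrays and 9.29 and 9.30 in the combination arrays. Without the drug it read 8.30 and 8.18 in the progesterone arrays and 8.45 and 8.29 in the vehicle arrays. RU-486 replicate 1 was the low one of the treated arrays and still lay 0.61 log2 units above the highest array without the drug. PCK2 rose by 0.94 ± 0.08 log2 units, 1.91-fold (limma adjusted p = 0.0236).

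CPT1A and SLC25A20 act one after the other in the carnitine shuttle: CPT1A joins fatty acids to carnitine at the outer mitochondrial membrane, and SLC25A20 carries the product across the inner membrane. CPT1A was at 10.71 and 10.70 in RU-486 arrays and 10.97 and 10.84 in combination arrays, against 9.89 and 9.54 in progesterone arrays and 9.87 and 9.76 in vehicle arrays. SLC25A20 was at 8.67 and 8.59 in RU-486 arrays and 8.78 in both combination arrays, against 8.05 and 7.97 in progesterone arrays and 8.10 and 8.05 in vehicle arrays. In both genes the combination arrays were the highest of the 8 and progesterone replicate 2 the lowest. CPT1A rose 2.06-fold, by 1.04 ± 0.09 log2 units with a 95% interval of 0.83 to 1.25, and SLC25A20 rose 1.58-fold, by 0.66 ± 0.06 with an interval of 0.53 to 0.79 (limma adjusted p = 0.0236 each).

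The number of calls rested on single arrays. Omitting any of 5 arrays, namely either combination array, the second RU-486 array or either vehicle array, left 0 calls by limma, with 804 to 1867 genes at an unadjusted p under 0.05. Only ASNS was called without RU-486 replicate 1, and 7 genes were called without progesterone replicate 2. Without progesterone replicate 1 the count was 998 genes, 5.42% of those tested, of which 261 rose and 737 fell, and the 6 genes were among them. The sizes moved less: over these 8 omissions ASNS lay between 1.05 and 1.23 log2 units, CPT1A between 0.95 and 1.13, NUPR1 between 0.91 and 1.11, CHAC1 between 0.92 and 1.01, PCK2 between 0.87 and 1.00 and SLC25A20 between 0.64 and 0.68. Tested over all 33297 probe sets instead of 18417 genes, 0 were called, with 2679 at an unadjusted p under 0.05.

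Promoter sequences are shown for ASNS and CHAC1, which held the ATF4 element marked below, and for the called carnitine shuttle genes. PCK2, also in the ATF4 list, had a window without a match and is not printed. A RefSeq promoter window (GRCh38.p14, 250 bases before to 50 after the annotated start) was found for 5 of the 6 genes, all but NUPR1. Capitals mark an exact match, on either strand, to TGATGNAA, the composite element at which ATF4 pairs with a C/EBP factor. The windows are chr7:97872359-97872658 on the minus strand for ASNS, chr15:40953221-40953520 on the plus strand for CHAC1, chr11:68844228-68844527 on the minus strand for CPT1A and chr3:48898833-48899132 on the minus strand for SLC25A20, each printed 5′ to 3′ along its gene.
ASNS: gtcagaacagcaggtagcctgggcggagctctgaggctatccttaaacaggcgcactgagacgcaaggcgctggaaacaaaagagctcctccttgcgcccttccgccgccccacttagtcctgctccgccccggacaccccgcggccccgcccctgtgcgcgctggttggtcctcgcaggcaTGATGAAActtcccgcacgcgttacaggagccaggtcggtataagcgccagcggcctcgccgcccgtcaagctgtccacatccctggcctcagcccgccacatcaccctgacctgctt
CHAC1: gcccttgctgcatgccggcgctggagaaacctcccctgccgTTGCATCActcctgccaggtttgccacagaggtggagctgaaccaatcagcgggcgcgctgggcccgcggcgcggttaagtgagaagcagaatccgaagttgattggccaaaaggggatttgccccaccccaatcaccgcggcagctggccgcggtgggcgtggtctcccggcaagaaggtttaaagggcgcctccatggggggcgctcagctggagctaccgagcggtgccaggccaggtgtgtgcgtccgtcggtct
CPT1A: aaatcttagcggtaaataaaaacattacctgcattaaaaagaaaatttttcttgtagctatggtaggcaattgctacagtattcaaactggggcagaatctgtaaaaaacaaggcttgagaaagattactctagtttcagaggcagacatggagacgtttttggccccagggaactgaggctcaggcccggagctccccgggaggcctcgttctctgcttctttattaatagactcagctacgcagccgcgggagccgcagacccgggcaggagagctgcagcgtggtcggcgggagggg
SLC25A20: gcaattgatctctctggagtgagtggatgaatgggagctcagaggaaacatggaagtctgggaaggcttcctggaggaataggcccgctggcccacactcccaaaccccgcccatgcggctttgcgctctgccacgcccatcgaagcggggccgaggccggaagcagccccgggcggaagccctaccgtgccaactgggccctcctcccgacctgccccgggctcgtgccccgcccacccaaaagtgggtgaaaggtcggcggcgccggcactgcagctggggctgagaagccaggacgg

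The element was present in ASNS, from base -68 before the start in the direction of the gene, and in CHAC1, from base -209 on the opposite strand. It was found in 2 of the 5 called genes with a window and in 3.67% of all 27305 promoters. It was not in the windows of PCK2, CPT1A or SLC25A20, nor in those of the other 6 genes with a window among the 12 largest higher differences. A PPAR element (AGGNCA repeated after 1 free base) and the palindrome read by the glucocorticoid and progesterone receptors (GNACA and TGTNC with 3 free bases between them) were in 0 of the 5 windows, beside 0.308% and 0.388% of all promoters. The NRF2 element (TGACNNNGC) was in 0 of the 5, beside 13.6%. All motifs were searched on both strands. A match is a run of letters and does not show that a factor binds there, and these windows leave out introns and distant elements.

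The drug's difference was next taken apart by progesterone. The mean difference of each comparison uses 4 arrays, with no array in common. The spread behind both tests was pooled over the arrays of all 4 groups, so their p-values and call counts are not independent. RU-486 against vehicle gave 0 called genes of 18417 (0%), with 571 at an unadjusted p under 0.05. The combination against progesterone gave 0 (0%), with 2686 at an unadjusted p under 0.05. Without progesterone replicate 1 the count of the combination against the other progesterone array was 1090, with 307 genes up and 783 down. The smallest limma adjusted p was 0.484 in the first and 0.0777 in the second. ASNS differed by 1.00 log2 units in the absence and 1.28 in the presence of progesterone, CPT1A by 0.89 and 1.20, NUPR1 by 0.98 and 1.04, CHAC1 by 0.80 and 1.13, PCK2 by 0.82 and 1.05 and SLC25A20 by 0.55 and 0.77. Over all 18417 genes the 2 sets of differences had a Pearson correlation of 0.41 and the same sign in 56.1% of genes. This correlation is across genes, which are not independent replicates.

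In the plot of both comparisons all 6 called genes lie above the line of equal difference. The test of the difference itself, the interaction, called 0 of 18417 genes (0%), with 972 at an unadjusted p under 0.05. SESN2, a sestrin that holds back mTORC1 when leucine is short, had the smallest interaction p of the 88 named genes. It stood at 7.85 and 7.92 in RU-486 arrays against 7.68 and 7.64 in vehicle arrays, and at 8.30 and 8.10 in combination arrays against 7.29 and 7.36 in progesterone arrays. The drug's difference was 0.22 log2 units without and 0.88 with progesterone, and these differed by 0.65 ± 0.13 (limma interaction adjusted p = 0.828, not passed). FABP4, a fatty acid carrier, differed by 0.27 and 1.26, and the metallothionein gene MT1F by 0.52 and 0.07, with the same adjusted p.

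**Figure D2:**
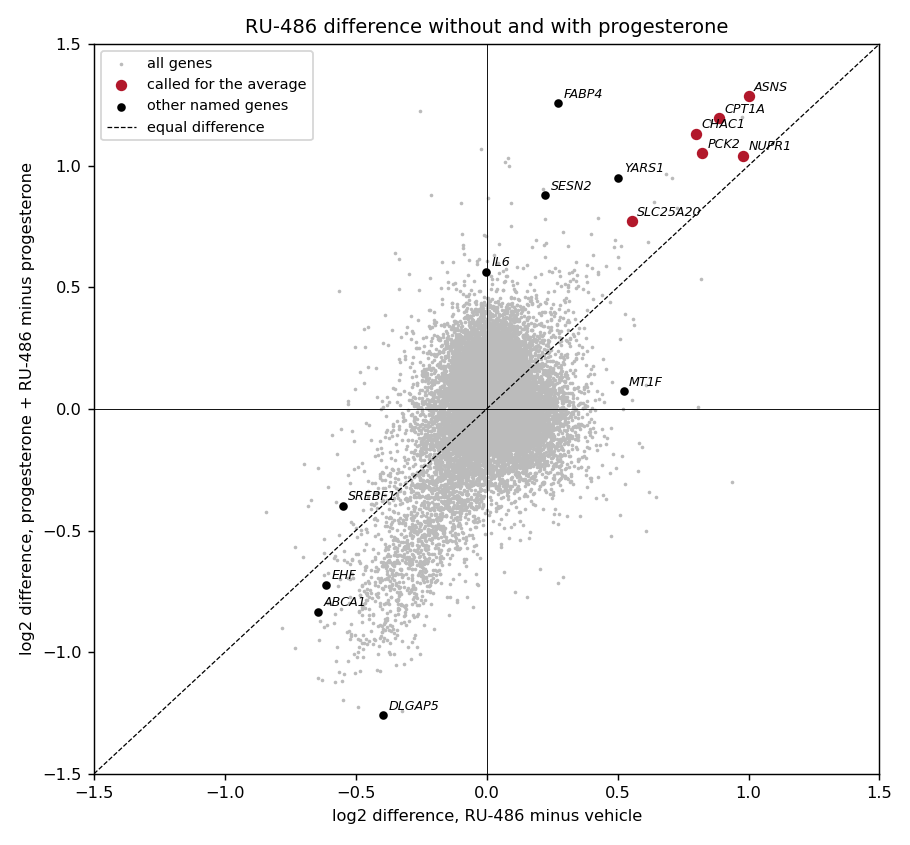
Log2 difference of RU-486 against vehicle (horizontal axis) and of the combination against progesterone (vertical axis) for 18417 genes; each point is a gene, red points are the 6 called genes, black points other named genes and the dashed line marks equal differences. The 6 called genes lie in the upper right, at 0.55 to 1.00 across and 0.77 to 1.28 up, and a tail of genes runs to the lower left below the dashed line.

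Groups of genes are described below by how many members had all 4 arrays with RU-486 above, or below, the 4 without it. Of all genes 4.51% had no overlap with the higher levels on the treated side (831 genes) and 1.09% with the lower levels there (201 genes). The total of 1032 (5.6%) was 1803 without vehicle replicate 1, 3579 without progesterone replicate 1, 1727 without RU-486 replicate 1 and 2234 without RU-486 replicate 2. Leaving out an array can only keep or add genes without overlap. Of all genes 62.5% had a higher mean on the treated side, against which counts of members with a higher mean are to be read. Without progesterone replicate 1, 1.42% of all genes rose and 4% fell by limma. That omission leaves 1 progesterone array, which the fit assumes to vary like the other groups. The other omissions called far fewer genes. For this one only list medians are given below, and they do not check the lists.

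**Figure D3:**
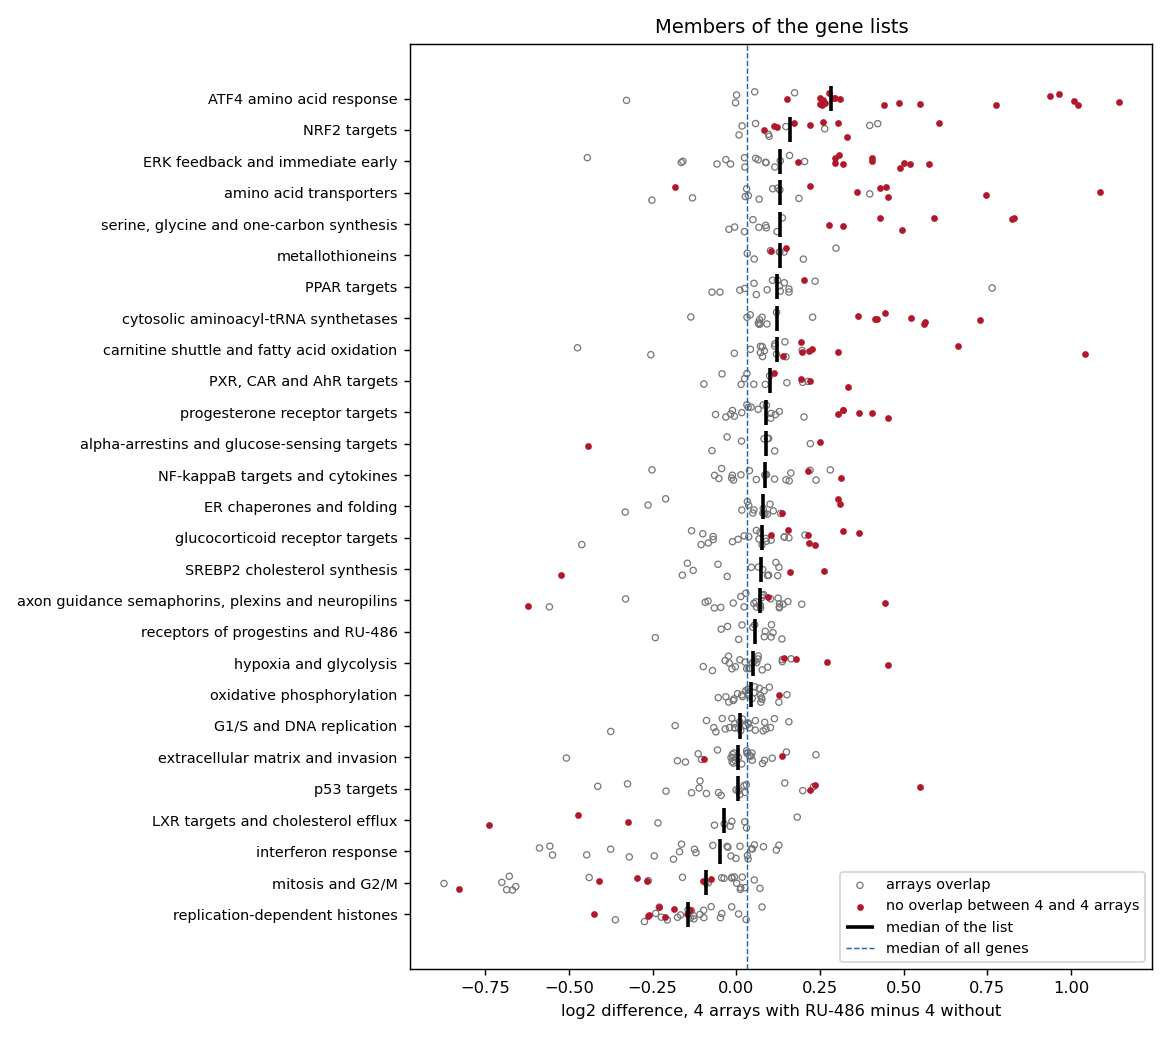
Log2 difference with minus without RU-486 (horizontal axis) for the members of 27 gene lists (vertical axis); red points are genes without overlap between the 4 treated and 4 other arrays, open points genes with overlap, black bars list medians and the dashed line the median of all genes. The ATF4 list lies farthest to the right, with a median of 0.28, and replication-dependent histones farthest to the left, at -0.14.

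Genes of the ATF4 amino acid response held 4 of the 6 called genes. With the drug 22 of 24 members had the higher mean, 19 (79.2%) had no overlap and a higher level, and the median difference was 0.28 log2 units. It was 0.20 without and 0.37 with progesterone. With progesterone replicate 1 left out the list median was 0.29.

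Beyond the called members, ATF4 itself stood at 10.93 and 10.96 in RU-486 arrays and 11.09 and 10.95 in combination arrays, against 10.41 and 10.45 in progesterone arrays and 10.58 and 10.54 in vehicle arrays. The sides did not overlap, and the difference was 0.49 ± 0.06 (limma adjusted p = 0.0794). GDF15, a stress-induced cytokine, was among the largest differences at 1.02 ± 0.16 (limma adjusted p = 0.172), but its treated arrays ran from 9.41 to 10.01 and the others from 8.41 to 8.99. The pseudokinase gene TRIB3, which feeds back on ATF4, was at 9.60 and 9.92 in RU-486 arrays and 9.80 and 9.75 in combination arrays, against 9.11 and 8.78 in progesterone arrays and 9.15 and 8.93 in vehicle arrays, a difference of 0.78 ± 0.11. The stress transcription factor DDIT3 differed by 0.44, ATF3 by 0.30 and CEBPB by 0.25. Arrays overlapped for the other 5 members: KLHL24 was at -0.33 and VLDLR at 0.17, while CEBPG differed by 0.05 and the 2 secreted factors ADM2 and FGF21 by less.

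Serine and one-carbon enzymes, which make serine from a glycolytic intermediate and pass its carbon to folate, were higher in 14 of 16 members. Without overlap were 7 of 16 (43.8%), and 0 were called by limma. PHGDH and PSAT1, the first 2 steps of serine synthesis, differed by 0.83 ± 0.10 and 0.82 ± 0.09 (limma adjusted p = 0.0794 and 0.0730). PHGDH read 11.16 and 11.35 in RU-486 arrays and 11.33 and 11.26 in combination arrays, against 10.51 and 10.18 in progesterone arrays and 10.66 and 10.44 in vehicle arrays. PSPH, the last step, differed by 0.28. In the mitochondrial folate branch MTHFD2 differed by 0.59, SHMT2 by 0.43 and MTHFD1L by 0.32, all without overlap, and MTHFD2L by 0.12 with overlap, while the cytosolic SHMT1 and MTHFD1 differed by 0.09 and 0.07 with overlap. Whether the mitochondrial and cytosolic members differ was not tested.

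Among amino acid transporters 0 were called. SLC6A9, a glycine transporter, stood at 9.32 and 9.57 in RU-486 arrays and 9.70 and 9.63 in combination arrays, against 8.68 and 8.24 in progesterone arrays and 8.54 and 8.40 in vehicle arrays. It ranked next after the 6 called genes, with a difference of 1.09 ± 0.11 (limma adjusted p = 0.0557). The neutral amino acid transporter SLC1A4 differed by 0.74 ± 0.08 (limma adjusted p = 0.0730). SLC3A2 and SLC7A5, the chains of a leucine exchanger, differed by 0.45 and 0.36, the cationic amino acid transporter SLC7A1 by 0.45 and the glutamine transporter SLC1A5 by 0.43. Of 19 transporters 7 (36.8%) were higher without overlap and 1, SLC38A3 at -0.18, was lower without overlap. The median of the 19 was 0.13, and 0.20 without progesterone replicate 1. The cystine transporter SLC7A11 differed by 0.40 ± 0.20 with overlapping arrays, from 9.98 to 10.66 with the drug and 9.40 to 10.10 without it.

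Cytosolic aminoacyl-tRNA synthetases, which charge tRNAs with amino acids, were higher in 18 of 19 members. YARS1, for tyrosine, was at 10.83 and 10.97 in RU-486 arrays and 11.30 and 11.09 in combination arrays, against 10.33 and 10.16 in progesterone arrays and 10.47 and 10.32 in vehicle arrays. It differed by 0.73 ± 0.08 (limma adjusted p = 0.0730). CARS1, AARS1 and GARS1 differed by 0.56, 0.56 and 0.52, and SARS1, WARS1, MARS1 and IARS1 by 0.42, 0.41, 0.44 and 0.36. These 8 (42.1%) had no overlap. The other 11 overlapped and lay between -0.14 for EPRS1 and 0.23 for TARS1. The median of the 19 was 0.12, and 0.15 without progesterone replicate 1.

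Chaperones and folding factors of the endoplasmic reticulum, which the unfolded protein response raises, had a median of 0.08 and 3 of 19 members (15.8%) without overlap. These were XBP1, a transcription factor of that response, at 0.30 ± 0.05, HERPUD1, a factor of protein disposal, at 0.31 ± 0.08, and the chaperone HSPA5 at 0.14. HSPA5 read 13.15 and 13.20 in RU-486 arrays and 13.24 and 13.18 in combination arrays, against 13.05 and 12.98 in progesterone arrays and 13.12 and 13.08 in vehicle arrays. HSP90B1, DNAJC3 and SEL1L had lower means, at -0.26, -0.33 and -0.21, with overlap. When progesterone replicate 1 was left out, the list median was 0.07.

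In fatty acid oxidation, CPT1A and SLC25A20 were the called members, and 20 of 23 genes had a higher mean. Without overlap were 8 (34.8%). After the shuttle genes came ACAA2, the last enzyme of the mitochondrial cycle, at 0.30 ± 0.06, the acyl-CoA synthetase ACSL1 at 0.23, the trifunctional enzyme subunit HADHB at 0.22, the isomerase ECI2 at 0.20 and the long-chain dehydrogenase ACADVL at 0.19. The remaining shuttle enzyme, CPT2, which releases the fatty acid inside the mitochondrion, differed by 0.12 and the plasma membrane carnitine carrier SLC22A5 by 0.08, with overlap. ACADM at -0.26 and ACSL4 at -0.47 had lower means with overlap.

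Fatty acid oxidation genes named above, such as CPT1A and ACAA2, were counted in that list only. In the separate list of PPAR targets 1 of 17 (5.88%) had no overlap, against 4.51% of all genes. That member was ECH1, an enzyme of unsaturated fatty acid oxidation, at 0.20 ± 0.07. FABP4 had the largest difference, 0.76 ± 0.15 (limma adjusted p = 0.267), from arrays that overlapped. Its treated arrays ran from 7.41 to 7.70, its progesterone arrays stood at 6.21 and 6.59 and its vehicle arrays at 7.57 and 7.01. PDK4, the kinase that turns off pyruvate oxidation, differed by 0.14, ANGPTL4 by 0.16 and the lipid droplet gene PLIN2 by 0.05. The oxidative phosphorylation list had a median of 0.04 and 1 of 26 members (3.85%) without overlap.

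On the lower side 0 genes were called (limma, 827 at an unadjusted p under 0.05). Genes that the liver X receptor activates held some of the lower levels. ABCA1, which exports cholesterol, stood at 9.42 and 9.56 in RU-486 arrays and 9.25 and 9.34 in combination arrays, against 9.96 and 10.29 in progesterone arrays and 10.02 and 10.26 in vehicle arrays. Its nearest arrays were 0.39 log2 units apart, and the difference was -0.74 ± 0.10 (limma adjusted p = 0.112). SREBF1, the gene of the lipid synthesis regulator SREBP1, read 10.29 and 10.19 in RU-486 arrays and 10.41 and 10.36 in combination arrays, against 10.82 and 10.75 in progesterone arrays and 10.78 and 10.81 in vehicle arrays. The 4 arrays without the drug lay within an SD of 0.03, and the difference was -0.47 ± 0.06 (limma adjusted p = 0.0794). MYLIP, which marks the LDL receptor for degradation, differed by -0.32 ± 0.06 without overlap, and ABCG1, a cholesterol exporter, by -0.23 with overlap. The other members, LPCAT3, NR1H3, SMPDL3A, ABCG4, SCD, APOE and APOC1, lay between -0.07 and 0.18. Thus 3 of 11 (27.3%) were lower without overlap, against 1.09% of all genes.

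Cholesterol synthesis genes, which SREBP2 drives, had differences of both signs and 0 calls. STARD4, a sterol carrier, differed by -0.52 ± 0.12, from 6.65 to 6.90 in treated arrays, against 6.92 to 7.63 in the others. SQLE, the squalene epoxidase, differed by 0.26 ± 0.08, and the sterol enzyme gene NSDHL by 0.16. These 3 of 16 members had no overlap, and the list median was 0.07.

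**Figure D4:**
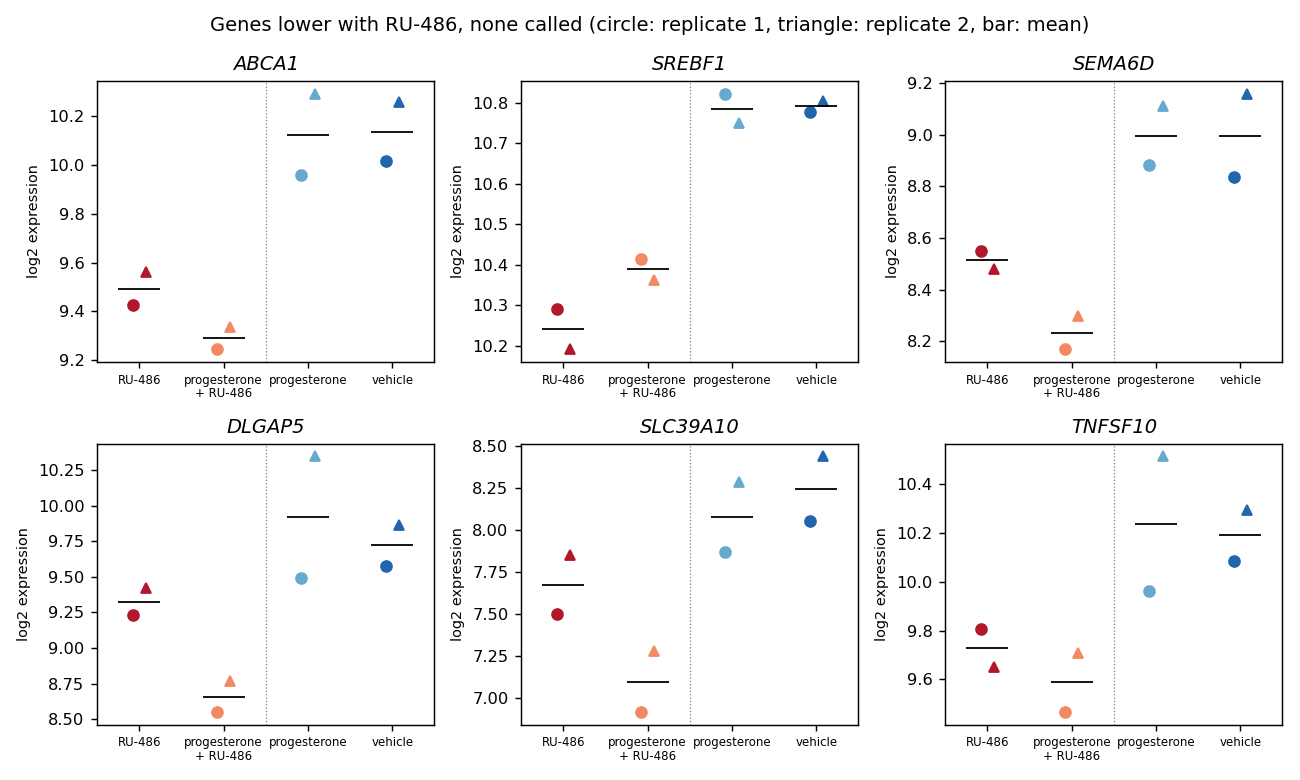
Log2 expression (vertical axes) of 6 genes that were lower with RU-486 without being called, by treatment (horizontal axes); circles are replicate 1, triangles replicate 2 and bars means of 2 arrays. ABCA1 and SREBF1 show a wide gap between the 4 arrays left of the dotted line, with RU-486, and the 4 right of it, while DLGAP5 and SLC39A10 come within 0.07 and 0.02 log2 units of overlap, and the axes do not start at 0.

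Among genes without overlap, with an unadjusted p under 0.01 and a mean above 6.22, the 12 largest lower differences ran from -0.83 for DLGAP5, a mitotic spindle gene, to -0.56 for TNFSF10, the death ligand TRAIL. Among them were the zinc importer SLC39A10, the centriole gene CEP97, the DNA demethylase TET2, the splicing helicase DDX46, the condensin subunit NCAPG, the matrix gene HMCN1, the axon guidance gene SEMA6D and SESN3, a sestrin. SEMA6D was at 8.55 and 8.48 in RU-486 arrays and 8.17 and 8.30 in combination arrays, against 8.88 and 9.11 in progesterone arrays and 8.84 and 9.16 in vehicle arrays, a difference of -0.62 ± 0.09 (limma adjusted p = 0.166). EHF, an ETS family factor, differed by -0.67 ± 0.15, with 0.24 log2 units between its nearest arrays. CEP97, SESN3, SLC39A10 and NCAPG came within 0.05 log2 units of overlap. In all 12 the combination mean lay below the RU-486 mean. The limma adjusted p of the 12 ran from 0.112 for ABCA1 to 0.395 for CEP97. With 1 array left out the difference ran from -1.04 to -0.61 for DLGAP5 and from -0.69 to -0.42 for TNFSF10.

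Genes of mitosis had lower means in 22 of 29 members, and 6 (20.7%) were lower without overlap. None of the 29 was called by limma with all 8 arrays. The list median was -0.09, and -0.13 without progesterone replicate 1. DLGAP5 stood at 9.23 and 9.42 in RU-486 arrays and 8.55 and 8.77 in combination arrays, against 9.49 and 10.35 in progesterone arrays and 9.58 and 9.87 in vehicle arrays. The 2 vehicle arrays and the 2 RU-486 arrays were separated by less than the 2 progesterone arrays were from each other. The checkpoint kinases BUB1B and BUB1 differed by -0.27 ± 0.06 and -0.30 ± 0.07 and the spindle motor KIF23 by -0.41. HMMR, TTK, CENPF, KIF11, TOP2A and ASPM had means lower by 0.66 to 0.87 but overlapping arrays, whereas the mitotic genes PLK1, CCNB1, CCNB2, AURKA, BIRC5 and TPX2 all lay within 0.02 of 0. The list mean was 10.12 to 10.28 in treated arrays and 10.21 to 10.66 in the others. In bulk RNA, fewer cells in mitosis and less of these RNAs per cell cannot be told apart. G1/S and replication genes had a median of 0.01 and 0 of 28 members without overlap.

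Replication-dependent histone genes were lower in 28 of 31 members, with 8 (25.8%) lower without overlap. The list median was -0.14 both with all arrays and without progesterone replicate 1. H1-3, a linker histone, was at 8.68 and 8.45 in RU-486 arrays and 8.49 and 8.41 in combination arrays, against 8.88 and 8.99 in progesterone arrays and 9.08 and 8.78 in vehicle arrays, a difference of -0.43 ± 0.09 (limma adjusted p = 0.309). The other 7 were H3C10, H2AC8, H2BC9, H4C2, H1-5, H1-2 and H4C9, from -0.14 to -0.27. Histone genes of a family are near-identical, so their probe sets may share signal and are not independent. Interferon response genes had a median of -0.05, or -0.07 without progesterone replicate 1, and 0 of 26 without overlap. Their largest difference by p, IFIH1, a sensor of viral RNA, at -0.55 ± 0.24, was dim, and its arrays ran from 5.23 to 5.51 with the drug and 5.37 to 6.32 without it.

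NRF2 targets, genes of defence against oxidants, had a higher mean in 18 of 18 members, with 9 (50%) without overlap. HMOX1, which breaks down heme, read 10.43 and 10.47 in RU-486 arrays and 10.78 and 10.55 in combination arrays, against 10.14 and 9.62 in progesterone arrays and 10.13 and 9.92 in vehicle arrays. It differed by 0.60 ± 0.12 (limma adjusted p = 0.287). TXNRD1 and SRXN1, of the thioredoxin system, differed by 0.33 and 0.30, GCLC, the first enzyme of glutathione synthesis, by 0.26 and NQO1 by 0.11. Metallothioneins, which bind zinc and copper, were higher in 10 of 10, but 2 (20%) had no overlap, and their near-identical sequences may share signal. Targets of PXR, CAR and AhR, the sensors of foreign compounds, had 4 of 15 (26.7%) without overlap. Those were the drug exporters ABCC3, at 0.33 ± 0.06, and ABCC2, at 0.22, with ALAS1 and NQO1, while CYP3A4 differed by 0.21 and ABCB1 by 0.02 with overlap.

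Glucocorticoid receptor targets had a higher mean in 21 of 29 members (72.4%, against 62.5% of all genes), with 7 (24.1%) higher and 0 lower without overlap. The list median was 0.08, and 0.09 without progesterone replicate 1. SGK1, a kinase induced by steroids, stood at 9.37 and 9.48 in RU-486 arrays and 9.40 and 9.48 in combination arrays, against 9.02 and 8.99 in progesterone arrays and 9.21 and 9.05 in vehicle arrays. The difference was 0.37 ± 0.06 (limma adjusted p = 0.235). TSC22D3, the leucine zipper gene known as GILZ, differed by 0.32 ± 0.08, and NFKBIA, CEBPD, GADD45A, ERRFI1 and MT2A by 0.10 to 0.24. Other standard targets overlapped between the sides: PER1 was at 0.21, ZBTB16 at 0.09, DUSP1 at 0.07, KLF9 at -0.07 and GLUL at 0.02. Of the 29 members 8 had a lower mean, 1 of them at an unadjusted limma p under 0.05. The lowest stood at -0.46 with overlap, larger in size than the highest of the list, SGK1. Progesterone receptor targets had 6 of 23 (26.1%) higher without overlap, namely VEGFA, SGK1, MYC, KLF4, DKK1 and TSC22D3, and 2 of these also stand in the glucocorticoid list. The median of the 23 was 0.09, and 0.16 without progesterone replicate 1. VEGFA, the vascular growth factor, differed by 0.45 ± 0.07 (limma adjusted p = 0.170), from 9.18 to 9.45 in treated arrays, against 8.85 to 8.93 in the others.

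Of the ERK feedback and immediate early genes 11 of 27 (40.7%) were higher without overlap. SPRY2, an inhibitor of receptor tyrosine kinase signalling, was at 8.87 and 8.89 in RU-486 arrays and 8.87 and 8.94 in combination arrays, against 8.45 and 8.08 in progesterone arrays and 8.50 and 8.45 in vehicle arrays. It differed by 0.52 ± 0.09 (limma adjusted p = 0.218). DUSP6, a phosphatase of ERK, differed by 0.57, the ETS factors ETV4 and ETV5 by 0.50 and 0.49, SPRY4 by 0.41 and DUSP4 by 0.31. Of the immediate early genes MYC, KLF4, NR4A2 and ATF3 differed by 0.30 to 0.41 without overlap, whereas FOS, FOSB, JUN, JUNB, IER2, EGR3 and NR4A1 lay within 0.10 of 0, and EGR1 had a lower mean, at -0.45, with overlap.

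The remaining lists had few members apart. Higher without overlap were 3 of 21 p53 targets (14.3%), 2 of 22 NF-kappaB targets and cytokines (9.09%), 4 of 26 hypoxia and glycolysis genes (15.4%), 2 of 30 axon guidance genes (6.67%), 1 of 29 matrix and invasion genes (3.45%) and 1 of 10 alpha-arrestin and glucose-sensing genes (10%). Lower without overlap were 1 of the 29 matrix genes (3.45%) and 1 of the 30 axon guidance genes (3.33%), against 1.09% of all genes. The largest difference of the matrix list was that of ITGAV, at -0.51. Of the arrestins ARRDC3 was lower without overlap, at -0.44 ± 0.08, while TXNIP and ARRDC4, targets of the glucose sensor MondoA, were at -0.07 and 0.02. PLXNA2, a semaphorin receptor, differed by 0.44 ± 0.10. Among astrocyte markers SLC1A3 alone was without overlap, at 9.44 and 9.49 in RU-486 arrays and 9.16 and 9.32 in combination arrays, against 8.82 and 8.87 in progesterone arrays and 8.92 and 8.95 in vehicle arrays. It differed by 0.46 ± 0.06 (limma adjusted p = 0.112), and GFAP by -0.21 ± 0.09 with overlap.

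A list of receptors of progestins and RU-486 was read last. Of its 17 genes 13 were measured, and 0 of these were called or free of overlap. PGR, the nuclear progesterone receptor, stood at 4.49 and 4.75 in RU-486 arrays and 4.57 and 4.49 in combination arrays, against 4.91 and 4.55 in progesterone arrays and 4.59 and 4.44 in vehicle arrays. These levels lay amid the olfactory receptor genes, 48.7% of which were below its mean. NR3C1, the glucocorticoid receptor, lay above all of them, at 9.92 and 10.07 in RU-486 arrays and 9.61 and 9.76 in combination arrays, against 9.88 and 10.20 in progesterone arrays and 10.07 and 10.17 in vehicle arrays. The difference of -0.24 ± 0.09 did not pass (limma adjusted p = 0.434). The membrane-associated PGRMC2 differed by 0.08 with a 95% interval of -0.08 to 0.25, and the membrane progestin receptor PAQR8 by -0.03 with an interval of -0.19 to 0.14. ESR1, ESR2, NR3C2, NR1I3, PAQR5 and PAQR7 lay below 6.22 on the log2 scale on average.

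**Figure D5:**
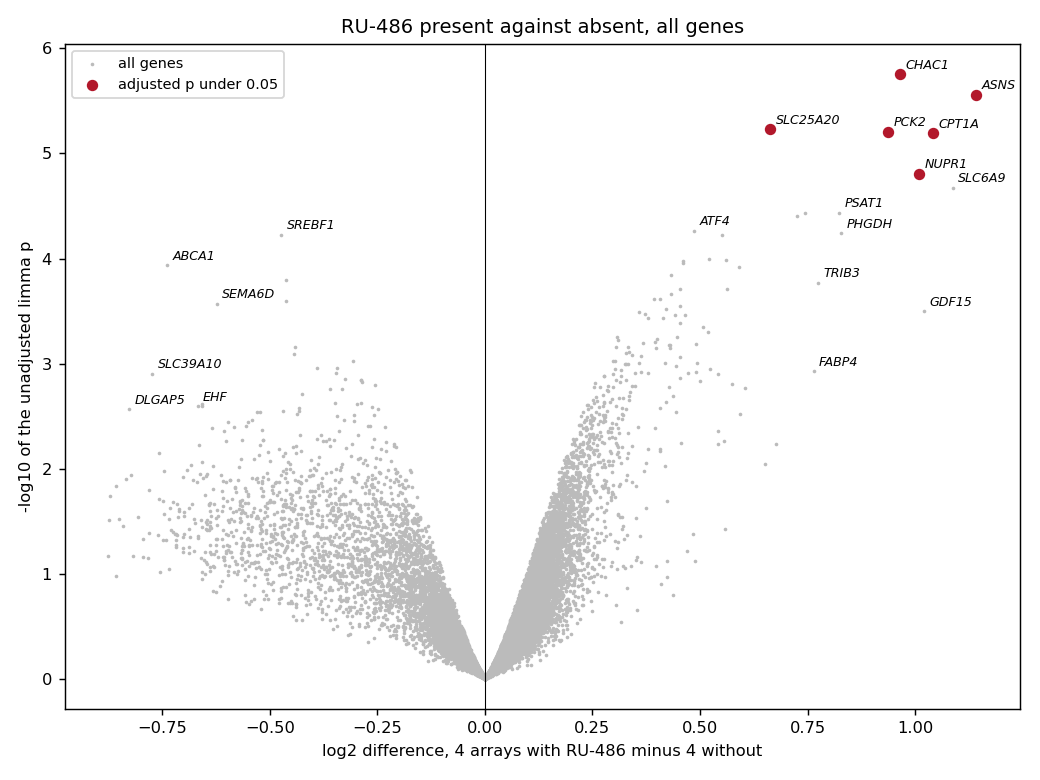
Log2 difference with minus without RU-486 (horizontal axis) against -log10 of the unadjusted limma p (vertical axis) for 18417 genes; red points are the 6 genes with an adjusted p under 0.05 and some other genes are labelled. The 6 called genes lie at the upper right, SLC6A9 just below them, and on the left SREBF1 and ABCA1 stand highest while DLGAP5 has a larger difference and a larger p.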

How the data were processed

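Each deposited value is a log2 expression level on 1 of 8 arrays, for 33297 probe sets. The tools named per the submitters' processing notes are RMA, oligo and limma; versions, settings and filters are not given in the sources used here. RMA equalises the distribution of values between arrays, so a shift shared by most genes would be lost, and it compresses differences of dim genes. Arrays have no read depth, and their number limits the precision.

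The annotation gave 1 symbol to 19460 probe sets, which were used, several to 1754 and none to 12083. For 769 genes with more than 1 probe set the one with the highest mean was kept, leaving 18417 genes. limma 3.58.1 in R 4.3.3 was fitted to the means of the 4 groups (4 residual degrees of freedom), with contrasts for the drug averaged over progesterone, for the drug without and with progesterone, and for their interaction. P-values were adjusted by Benjamini-Hochberg over all genes. The fit assumes 1 spread for all groups. The computation was tested on simulated data.

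The comparison, the 33 gene lists and the motifs were chosen with earlier results of these data known. Named genes are those called, the 12 largest differences each way (unadjusted p under 0.01, no overlap, mean above the olfactory receptor 95th percentile), the 2 smallest p-values of each list, and all measured receptors. Other list members were named after their values were seen. Alternatives were other models, scalings, filters and probe set rules, and leaving out each array. Sequences are from RefSeq (GRCh38.p14).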

Additional observations from a re-analysis of the deposited data

Results flagged for a closer look

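Among the 88 named genes, each side of 4 arrays was searched for an array far from the other 3, and 4 of 176 sets held one, where chance flags about 1 in 20. PCK2 in RU-486 replicate 1 stood at 9.06, below the next treated array at 9.29. SPRY2 in progesterone replicate 2 stood at 8.08, below the next array without the drug at 8.45, and ETV5 on the same array stood at 9.54, below 9.85. PAQR6 in combination replicate 1 stood at 7.90, above the next treated array at 7.80.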

How the results depend on the processing

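The 6 called genes were also called with the probe sets of a gene averaged, and 5 of them with quantile normalization. The count was 10 with an additive model, 20 without a progesterone term, 11 with median centring, 12 with dim genes left out, 43 with an intensity trend and robust prior, and 0 over all probe sets. The first 5 of these include the 6 genes. Leaving out 1 array gave 0 to 998 calls. RU-486 against vehicle gave 3 calls with array weights and 0 when any array was left out. The combination against progesterone gave 1 call with median centring, 17 with an intensity trend and robust prior, and 0 to 1090 with 1 array left out. The interaction gave 0 under every alternative run. Genes without overlap numbered 1227 to 3579 with 1 array left out, and such an omission can only keep or add them. The cause of the changes in calls was not tested.

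With the replicate number as a block the average comparison called 6 genes, 4 up and 2 down, of which 4 were among the 6 (PCK2 and NUPR1 were not). The lower ones were ABCA1 (limma adjusted p = 0.0476) and SLC39A10 (0.0313). The other comparisons still had 0 calls by limma, while genes at an unadjusted p under 0.05 numbered 3045 with the block and 2029 without it for the average, 946 and 571 for RU-486 against vehicle, 3764 and 2686 for the combination against progesterone, and 1504 and 972 for the interaction. Same-numbered arrays deviated together, with correlations from 0.20 to 0.51 over the 6 pairs of groups, but the titles do not say what the number marks. In all 12 of the largest lower differences replicate 2 lay above replicate 1 in the combination, progesterone and vehicle arrays, and in 9 of the 12 in the RU-486 arrays.

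Among named genes the sign changed only for receptors near 0. NR3C2, at 0.01, was at -0.0034 with quantile normalization. With 1 array left out, NR3C2 ran from -0.021 to 0.035, PGR from -0.14 to 0.045, ESR2 from -0.035 to 0.13, PAQR6 from -0.046 to 0.080, PAQR8 from -0.072 to 0.020, PAQR9 from -0.039 to 0.26, NR1I3 from -0.010 to 0.18 and NENF from -0.020 to 0.13.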

Other observations

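Several genes outside the lists were among the 60 smallest p-values without being called, and were chosen here after their values were seen. TACR1, the receptor of substance P, differed by 0.46 ± 0.06 log2 units (limma adjusted p = 0.112), with 9.37 and 9.38 in RU-486 arrays and 9.46 and 9.40 in combination arrays, against 8.86 and 8.92 in progesterone arrays and 9.07 and 8.92 in vehicle arrays. The arrays with and without the drug did not overlap. FYN, a Src family kinase, differed by 0.43 ± 0.06, EIF4EBP1, a repressor of cap-dependent translation, by 0.43 ± 0.06, and HEY1, a Notch target, by 0.45 ± 0.07. NPAS2, a clock transcription factor, differed by 0.36, the ephrin gene EFNB2 by 0.37 and the ubiquitin ligase gene FBXO32 by 0.38. Lower without overlap were the testis linker histone gene H1-6, at -0.46 ± 0.07, and the keratin gene KRT15, at -0.44 ± 0.08.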
